A study of Mus musculus with 8 samples.

Results

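The genes described here encode the lysosomal proton pump and other lysosome proteins in hearts of TAZG197V and wild-type (WT) mice. They were listed by name and function, with earlier results of these data known, and no measured value entered the rule. The set held 38 genes, 17 for subunits and accessory proteins of the vacuolar H+-ATPase (V-ATPase) and 21 for other lysosome proteins and for the MiT/TFE transcription factors, of 55471 gene rows in the deposited count tables and 15084 genes that had enough counts to be tested. RNA was sequenced from pieces of heart, 4 samples of each genotype, from mice aged 14 weeks. TAZG197V mice carry a glycine-to-valine exchange in Tafazzin, the X-linked mitochondrial enzyme that remodels cardiolipin, put in by CRISPR/Cas9 in C57BL/6N zygotes and passed on by crosses with C57BL6/J. The study's text calls the mutant mice hemizygous males, while its methods and the deposited growth protocol also speak of homozygous offspring, and the sex of the WT samples is not given in the sources used here. The mutation is present in every cell of the animal, so the samples cannot separate a change that starts in the heart from one that starts elsewhere. The number of founder lines and the part of the heart taken are not given in the sources used here. The labels number the samples but do not name the animals, so p-values measure the spread between samples.

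The V-ATPase pumps protons into lysosomes and other acidic compartments. Its cytosolic V1 sector hydrolyses ATP and its membrane V0 sector carries the protons, and the activity of the pump depends on reversible assembly of the sectors. The acidic lumen serves cathepsins, glycosidases and lipid-binding proteins that break down material delivered by endocytosis and autophagy, a route heart muscle uses to turn over organelles. TFEB, TFE3 and MITF bind E-box sequences and are known regulators of lysosome genes, and the Rag GTPases and the Ragulator complex on the lysosome surface control their entry into the nucleus.

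Total counts ran from 23055689 to 36301031 per library. Levels are given as counts relative to library size after TMM scaling (CPM). A gene was called when its edgeR adjusted p was under 0.05, the fitted level of 1 genotype exceeded that of the other by more than 15% and the mean count was at least 50. Taz, the gene of Tafazzin, averaged 60.9 ± 2.36 CPM over the WT and 47.3 ± 2.60 CPM over the TAZG197V samples (SD, n = 4 each), with a log2 fold change of -0.37 ± 0.0551 (SE, edgeR adjusted p = 0.00126). Replicate 4 of both genotypes (the number 4 libraries) stood apart. The summed level of 8 neuronal markers reached 207.2 CPM in WT 4 and 317.1 CPM in TAZG197V 4, against 19.1 to 40.7 CPM in the other 6 libraries, and Xist, the X-inactivation transcript, was at 5.63 and 16.5 CPM against 0.355 to 0.799 CPM. The Y-linked Ddx3y was at 99.9 and 104 CPM in these libraries, within the 88 to 108 CPM of the others. Haemoglobin and other red cell markers summed to 55070 CPM in WT 4 and to at most 1065 CPM elsewhere, and neutrophil markers to 53.75 CPM there and to at most 3.77 CPM elsewhere. WT 2 was the highest library for the fat cell genes Car3, at 22.2 CPM against at most 2.88 CPM elsewhere, and Cfd, at 10.1 against at most 1.91 CPM, and of 6 adipocyte markers 3 were tested and 1, Car3, was called lower. All 8 cardiomyocyte markers were present, and they summed to 60130 to 81060 CPM per library. Replicates 1 and 2 were sequenced in lane 7 and replicates 3 and 4 in lane 8 for both genotypes. Results that rest on the number 4 libraries are given with and without them.

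All 38 genes passed the filter on low counts. Of these, 18 were called higher and 4 lower in TAZG197V, and 16 were not called, with a median log2 fold change of 0.18 against -0.01 for all genes tested. Over all genes tested, 33.4% were called in either direction, 18.5% higher and 15.0% lower. Only the 12357 genes with a mean count of at least 50, all members among them, could be called. Of these genes, 22.5% were called higher and 18.3% lower. Proton pump genes had 11 of 17 called higher (64.7%) and 1 lower, with a median of 0.30. Other lysosome genes had 7 of 21 called higher (33.3%) and 3 lower (14.3%), with a median of 0.07. The genotypes did not overlap, higher in TAZG197V, for 16 members and, lower, for 4, where 19.3% and 13.9% of all genes tested did so, 33.2% in either direction. All 22 called members moved in the direction of their call in both lanes. In bulk tissue, fewer cells of a type and less RNA per cell cannot be told apart.

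In the V1 sector 6 of 8 genes were called higher, with a median log2 fold change of 0.30. Atp6v1h (ENSMUSG00000033793, chr1:5070018-5162529, plus strand, mm10), the subunit H gene whose protein couples ATP hydrolysis to proton transport, moved most. It was at 25.5, 29.7, 25.8 and 25.8 CPM in WT 1 to 4 and 82.98, 91.4, 72.6 and 72.3 CPM in TAZG197V 1 to 4. All 4 TAZG197V libraries lay far above all 4 WT libraries, and WT 2 was the highest of its genotype. The means were 26.7 ± 2.01 CPM over the WT and 79.8 ± 9.18 CPM over the TAZG197V samples (SD, n = 4 each), and the log2 fold change was 1.60 ± 0.0884 (SE, edgeR adjusted p = 1.09e-05), a change that 272 of the 15084 genes tested exceeded. Only 1.30% of its exon bases overlap another gene.

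Atp6v1a, the catalytic subunit A, was at 31.8, 33.7, 31.7 and 41.2 CPM in WT 1 to 4 and 37.6, 38.4, 38.9 and 62.6 CPM in TAZG197V 1 to 4. TAZG197V 4 was well above the rest and WT 4 was the highest of its genotype, and the groups overlapped. The log2 fold change was 0.33 ± 0.0599 (SE, edgeR adjusted p = 0.00337) and, without both number 4 libraries, 0.24 (edgeR adjusted p = 0.0163). The adjusted p was 0.154 without surrogate variables and 0.127 with lane in their place. Atp6v1c1, subunit C, which joins the stalk to the membrane sector, stood at 49.5, 50.7, 48.97 and 46.1 CPM in WT 1 to 4 and 66.3, 69.1, 61.9 and 64.95 CPM in TAZG197V 1 to 4. Every TAZG197V library was above every WT library, with a log2 fold change of 0.44 ± 0.0571 (SE, edgeR adjusted p = 0.000691). Atp6v1e1, of the peripheral stalk, was at 110.3, 102, 116 and 100.5 CPM in WT 1 to 4 and 129, 143, 130.3 and 128 CPM in TAZG197V 1 to 4. Here too the groups did not overlap, and the log2 fold change was 0.30 ± 0.0612 (SE, edgeR adjusted p = 0.00606).

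Atp6v1f, of the central stalk, was at 27.9, 26.9, 26.3 and 22.6 CPM in WT 1 to 4 and 31.9, 34.4, 29.2 and 30.04 CPM in TAZG197V 1 to 4. WT 4 was the lowest library and the groups did not overlap. Its log2 fold change was 0.30 ± 0.0754 (SE, edgeR adjusted p = 0.0159), and without TAZG197V 2 it was 0.27 (edgeR adjusted p = 0.0595). Atp6v1g1, the peripheral stalk partner of subunit E, was at 39.3, 38.03, 36.2 and 32.3 CPM in WT 1 to 4 and 41.5, 47.6, 42.1 and 39.7 CPM in TAZG197V 1 to 4. The groups again did not overlap, but the distance between TAZG197V 4 and WT 1 was small. Its log2 fold change was 0.25 ± 0.0686 (SE, edgeR adjusted p = 0.0231), and the call was lost without WT 2, WT 3, WT 4 or TAZG197V 2, each left out in turn, at adjusted p-values of 0.0533, 0.0531, 0.0753 and 0.0712, at 0.0608 without both number 4 libraries, at 0.0593 without surrogate variables and at 0.0552 with no filter on low counts. Of the 50-base windows in its transcripts, 19.2% also occur in another gene, as do 11.2% of those of Atp6v1f, so their counts are less certain. Atp6v1d, of the central stalk, had a log2 fold change of 0.19 ± 0.0564 (SE, edgeR adjusted p = 0.0286) that fell short of the fold limit. It passed in 5 of 20 alternatives, at 0.23 without WT 3 and at 0.20 (edgeR adjusted p = 0.0247) without both number 4 libraries among them. Atp6v1b2, the heart's main subunit B gene, was not called, at 0.02 ± 0.0640 on the log2 scale (SE) with an approximate 95% interval of -0.11 to 0.14. Without both number 4 libraries it was at 0.17 (edgeR adjusted p = 0.0834), and again not called. That value is above the interval, which is narrower than the edgeR test would give. Its difference between genotypes was 0.31 in lane 7 and -0.16 in lane 8.

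**Figure D1:**
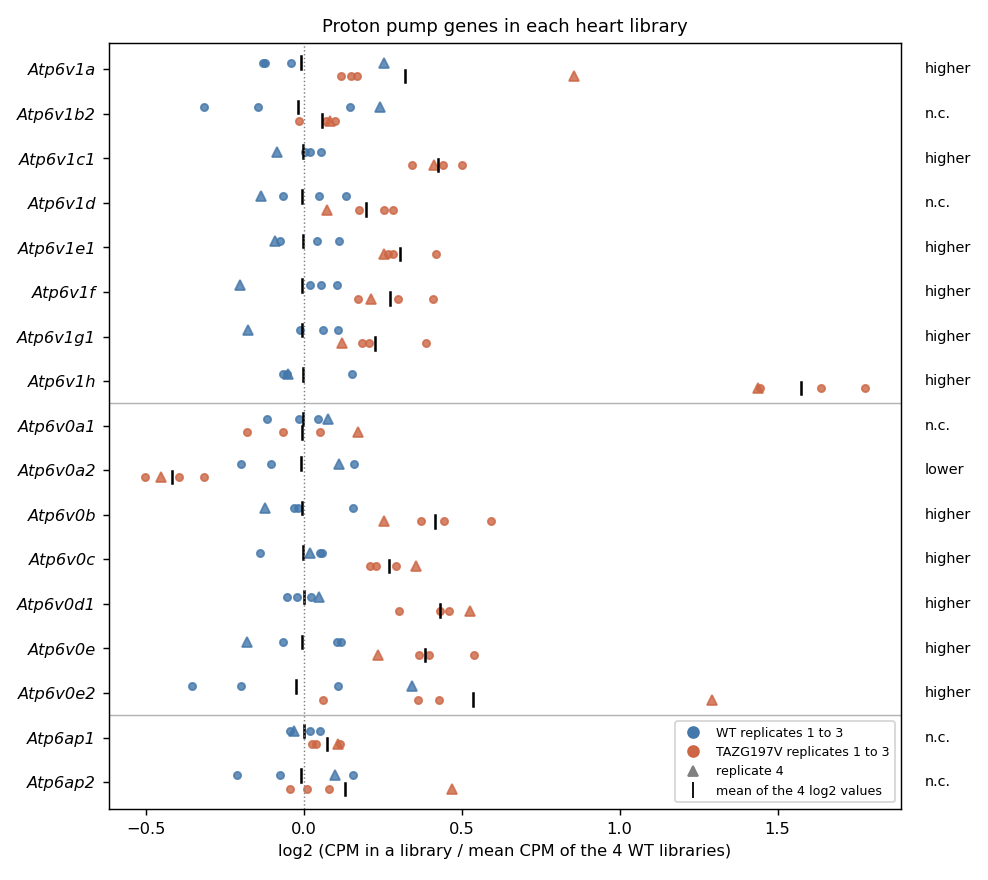
Each point is 1 heart library, placed by the log2 ratio of its CPM to the mean of the 4 WT libraries for 17 proton pump genes, with V1, V0 and accessory genes separated by lines. Triangles are replicate 4, vertical bars are means, and the column at the right gives the call (n.c., not called). Atp6v1h stands far to the right with no overlap, Atp6v0a2 is the only gene wholly to the left, and the high means of Atp6v1a and Atp6v0e2 rest partly on TAZG197V 4.

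In the V0 sector 5 of 7 genes were called higher and 1 lower, where 18.5% and 15.0% of all genes tested were. The median log2 fold change was 0.41. Atp6v0b, a proteolipid of the rotating ring, was at 56.4, 56.97, 64.3 and 52.99 CPM in WT 1 to 4 and 74.5, 87, 78.5 and 68.8 CPM in TAZG197V 1 to 4. Atp6v0c, the main ring proteolipid, was at 22.6, 19.7, 22.5 and 22.01 CPM in WT 1 to 4 and 25.4, 26.6, 25.1 and 27.8 CPM in TAZG197V 1 to 4. For both genes the groups did not overlap. The log2 fold change was 0.41 ± 0.0663 (SE, edgeR adjusted p = 0.00189) for Atp6v0b. That of Atp6v0c was 0.26 ± 0.0646 (SE, edgeR adjusted p = 0.0155), and without TAZG197V 2 it was 0.23 (edgeR adjusted p = 0.0614). Atp6v0c shares 10.8% of its 50-base windows with other loci, pseudogenes of the same name among them.

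Atp6v0d1, which links the ring to the central stalk, was at 34.9, 36.8, 35.7 and 37.5 CPM in WT 1 to 4 and 48.9, 49.8, 44.7 and 52.2 CPM in TAZG197V 1 to 4. Atp6v0e, a small membrane subunit, was at 28.1, 31.9, 31.6 and 25.9 CPM in WT 1 to 4 and 38.7, 42.7, 37.9 and 34.6 CPM in TAZG197V 1 to 4. All TAZG197V libraries were above all WT libraries for both genes. The log2 fold changes were 0.44 ± 0.0593 (SE, edgeR adjusted p = 0.000849) for Atp6v0d1 and 0.41 ± 0.0678 (SE, edgeR adjusted p = 0.0023) for Atp6v0e. Atp6v0e2, the other gene for subunit e, was at 11.3, 13.9, 10.1 and 16.4 CPM in WT 1 to 4 and 16.6, 17.4, 13.5 and 31.6 CPM in TAZG197V 1 to 4. TAZG197V 4 was far above the other libraries, and TAZG197V 3 lay below WT 2 and WT 4. The log2 fold change of 0.59 ± 0.0938 (SE, edgeR adjusted p = 0.00176) became 0.40 (edgeR adjusted p = 0.0665) without TAZG197V 4, and 0.43 (edgeR adjusted p = 0.0118) without both number 4 libraries. Its adjusted p was 0.115 without surrogate variables and 0.129 with lane in their place.

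Atp6v0a2 (ENSMUSG00000038023, chr5:124628576-124724455, plus strand), 1 of the genes for the large subunit a, went the other way. It was at 63.4, 59.3, 75.96 and 73.6 CPM in WT 1 to 4 and 51.8, 48.04, 54.7 and 49.7 CPM in TAZG197V 1 to 4. Every TAZG197V library was below every WT library, with means of 68.05 ± 8.00 CPM over the WT and 51.1 ± 2.87 CPM over the TAZG197V samples (SD, n = 4 each) and a log2 fold change of -0.45 ± 0.0685 (SE, edgeR adjusted p = 0.00152). Atp6v0a1, the alternative gene for this position, was at 94.3, 87.8, 98.2 and 100.4 CPM in WT 1 to 4 and 98.6, 84.04, 90.9 and 107 CPM in TAZG197V 1 to 4. Its groups overlapped throughout, and its log2 fold change was -0.02 ± 0.0656 (SE), with an approximate 95% interval of -0.15 to 0.11. Within a library, Atp6v0a1 counts per Atp6v0a2 count were 1.29 to 1.49 in WT and 1.66 to 2.16 in TAZG197V, a description with no test. The accessory genes Atp6ap1 and Atp6ap2 were not called, at 0.08 ± 0.0525 and 0.16 ± 0.0770 on the log2 scale (SE). Without both number 4 libraries Atp6ap2 was at 0.05 (edgeR adjusted p = 0.683).

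Per kilobase of exon, the pump genes differed widely in level. In WT the highest was Atp6ap1 at 47.7 ± 1.48 CPM per kilobase, followed by Atp6v1g1 at 32.1 ± 2.698 and Atp6v0b at 28.1 ± 2.33 (SD, n = 4 each). Atp6v1g1 and Atp6v0b overlap within 1 SD. Atp6v1h was the lowest of the 17 in WT at 2.74 ± 0.207 CPM per kilobase. In TAZG197V it reached 8.19 ± 0.942, and the means of 4 other pump genes lay within 1 SD of it, those of Atp6v0e2, 8.30 ± 3.40, Atp6v0c, 7.74 ± 0.362, Atp6v0a2, 7.59 ± 0.426, and Atp6v1a, 7.34 ± 2.01. Within a library, Atp6v1h counts per Atp6v1e1 count were 0.251 ± 0.0315 for WT and 0.602 ± 0.0464 for TAZG197V (SD, n = 4 each). The exon length of Atp6v1h, 9746 bases over all annotated isoforms, lowers its level per length if the heart uses short isoforms only.

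**Figure D2:**
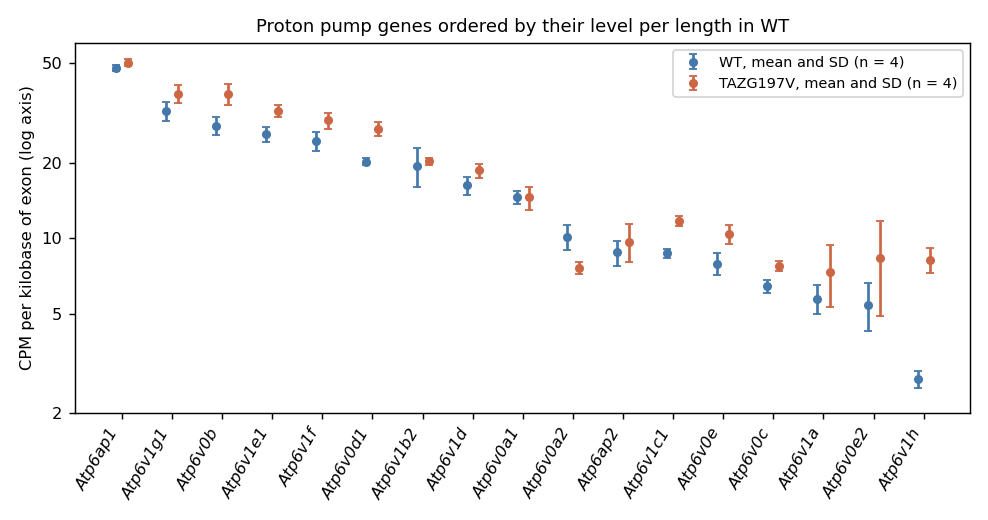
Points are mean CPM per kilobase of exon (log axis) with SD over 4 libraries for 17 proton pump genes, in order of the WT level. WT and TAZG197V means lie close together at Atp6ap1, Atp6v1b2 and Atp6v0a1, the TAZG197V mean is below WT at Atp6v0a2, and at Atp6v1h, the lowest in WT, the separation is widest.

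Several positions of the pump can be filled by alternative isoforms. Of the summed per-length level of the subunit a genes, Atp6v0a1 made up 51.8% ± 1.50 in WT against 57.9% ± 3.92 in TAZG197V, Atp6v0a2 36.0% ± 1.67 and 30.4% ± 1.41, and Tcirg1, known from osteoclasts and immune cells, 11.9% ± 1.35 and 11.5% ± 2.49 (SD, n = 4 each). Atp6v0a4, known from kidney, made up under 1% in each library. Atp6v1b1, Atp6v1c2 and Atp6v0d2 had 6, 9 and 38 counts over all 8 libraries together, and Atp6v1e2 and Atp6v1g3 had 0, which allows up to 3 counts by counting error alone. Atp6v1g2, the isoform of neurons, was at 3.04, 3.13, 3.38 and 6.16 CPM in WT 1 to 4 and 3.71, 4.29, 3.61 and 12.5 CPM in TAZG197V 1 to 4. Replicate 4 was the highest of both genotypes, as it was for the neuronal markers. Its call, at a log2 fold change of 0.44 ± 0.144 (SE, edgeR adjusted p = 0.0417), was lost without both number 4 libraries, at 0.29 (edgeR adjusted p = 0.153), and the part of the neuronal markers in it was not tested further. It was also lost without WT 1, WT 2, TAZG197V 2 or TAZG197V 4, at adjusted p-values of 0.123, 0.0756, 0.101 and 0.21, without surrogate variables (0.321), with lane in their place (0.28), with the replicate number as a block (0.0899), in DESeq2 (0.0838) and with no filter on low counts (0.0906).

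Among 19 other pump genes, which are these isoforms and the factors that assemble or regulate the complex, 13 were tested, 4 were called higher (30.8%) and 2 lower (15.4%), where 18.5% and 15.0% of all genes were, and the median log2 fold change was 0.08. Dmxl2, a large subunit of the RAVE-like complex that helps V1 rejoin V0, was at 60.4, 52.4, 63.03 and 60.2 CPM in WT 1 to 4 and 136, 112, 128 and 107 CPM in TAZG197V 1 to 4. The groups were far apart, and the log2 fold change was 1.01 ± 0.0756 (SE, edgeR adjusted p = 4.97e-05). Dmxl1, its paralogue in the same complex, was at 86.1, 80.7, 84.5 and 87.9 CPM in WT 1 to 4 and 74.8, 67.03, 70.2 and 57.4 CPM in TAZG197V 1 to 4. Every TAZG197V library was below every WT library, and the log2 fold change was -0.36 ± 0.0684 (SE, edgeR adjusted p = 0.00458). Ccdc115, which takes part in V0 assembly, was at 11.3, 11.9, 11.7 and 9.15 CPM in WT 1 to 4 and 16.02, 16.6, 14.7 and 12.4 CPM in TAZG197V 1 to 4. It did not overlap between genotypes, at 0.46 ± 0.0757 (SE, edgeR adjusted p = 0.00219). Its partner Tmem199 and, on the lower side, the assembly factor Vma21, both named after their values were seen, had log2 fold changes of 0.31 ± 0.0875 (SE, edgeR adjusted p = 0.0232) and -0.23 ± 0.0733 (SE, edgeR adjusted p = 0.0365). Their calls held in 15 and 9 of 20 alternatives.

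Among the 21 other lysosome genes, the called ones were Lamp2, Cd63, Ctsd, Ctsl, Ctsz, Hexa and Npc2, which were higher, and Ctsb, Tfeb and Mitf, which were lower. The 11 that were not called had log2 fold changes between -0.16 and 0.15. For all 10 called genes the groups did not overlap.

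Of the 6 membrane genes 2 were called, both higher, where 33.4% of all genes tested were called in either direction and 18.5% higher. Lamp2, the lysosome membrane protein needed for fusion with autophagosomes and for chaperone-mediated autophagy, was at 201, 225, 195 and 215 CPM in WT 1 to 4 and 255, 244, 254 and 242 CPM in TAZG197V 1 to 4. The lowest TAZG197V library was above the highest WT library, and the log2 fold change was 0.26 ± 0.0629 (SE, edgeR adjusted p = 0.0121). Cd63 (ENSMUSG00000025351, chr10:128900989-128912822, plus strand), a tetraspanin of late endosomes and lysosomes, was at 31.1, 38.5, 31.03 and 24.6 CPM in WT 1 to 4 and 47.9, 49.4, 48.05 and 46.2 CPM in TAZG197V 1 to 4. TAZG197V libraries lay within a narrow band above all WT libraries, of which WT 4 was the lowest. On the log2 scale the change was 0.69 ± 0.0568 (SE, edgeR adjusted p = 7.65e-05), and without both number 4 libraries it was 0.53 (edgeR adjusted p = 0.000631). Of the 50-base windows of Cd63, 11.1% also occur elsewhere. Lamp1, the paralogue of Lamp2, averaged 379.7 ± 28.3 CPM over the WT and 386 ± 9.79 CPM over the TAZG197V samples (SD, n = 4 each), and its log2 fold change was 0.02 ± 0.0692 (SE), with an approximate 95% interval of -0.11 to 0.16. Scarb2, the receptor that carries glucocerebrosidase, the calcium channel gene Mcoln1 and the cholesterol transporter gene Npc1 were not called either, at -0.05 ± 0.0581, 0.14 ± 0.0667 and -0.03 ± 0.0933.

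**Figure D3:**
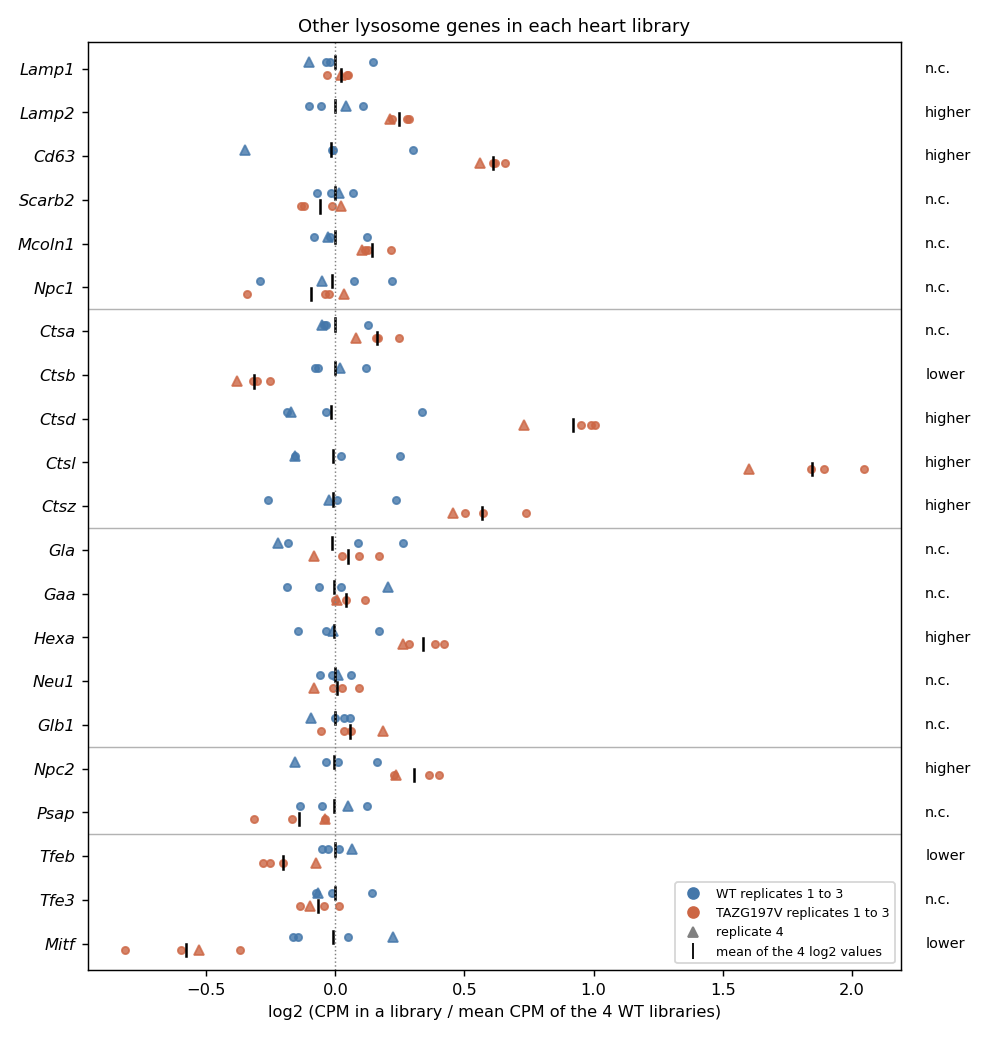
Each point is 1 heart library, placed by the log2 ratio of its CPM to the mean of the 4 WT libraries for 21 other lysosome genes, with membrane, cathepsin, glycosidase, lipid and transcription factor genes separated by lines. Triangles are replicate 4, vertical bars are means, and the column at the right gives the call (n.c., not called). Ctsl, Ctsd, Cd63 and Ctsz stand to the right of all their WT points, while Ctsb, Tfeb and Mitf stand to the left.

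The cathepsins did not move together. Ctsl (ENSMUSG00000021477, chr13:64359337-64370890, minus strand), a cysteine protease, was at 142, 161, 188 and 142 CPM in WT 1 to 4 and 587, 567, 654 and 481 CPM in TAZG197V 1 to 4. All TAZG197V libraries were more than 2-fold above the highest WT library, WT 3. The means were 158 ± 21.9 CPM over the WT and 572 ± 71.6 CPM over the TAZG197V samples (SD, n = 4 each), and the log2 fold change was 1.85 ± 0.0955 (SE, edgeR adjusted p = 7.53e-06), which 206 of the 15084 genes tested exceeded. Ctsd (ENSMUSG00000007891, chr7:142375911-142388038, minus strand), the main aspartic protease of lysosomes, was at 529, 476, 684 and 481 CPM in WT 1 to 4 and 1048, 1089, 1078 and 901 CPM in TAZG197V 1 to 4. Again the groups did not overlap, with WT 3 the highest WT library and TAZG197V 4 the lowest of its genotype. Its log2 fold change came to 0.90 ± 0.0902 (SE, edgeR adjusted p = 0.000197). Ctsz, a carboxypeptidase, was at 22.6, 31.8, 27.1 and 26.6 CPM in WT 1 to 4 and 38.2, 45.04, 40.1 and 37.04 CPM in TAZG197V 1 to 4. Its groups did not overlap, and the log2 fold change was 0.60 ± 0.103 (SE, edgeR adjusted p = 0.00263).

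Ctsb (ENSMUSG00000021939, chr14:63122462-63145923, plus strand), a cysteine protease like Ctsl, was lower in the mutant. It was at 544, 539.6, 619 and 577 CPM in WT 1 to 4 and 456, 462, 479 and 438 CPM in TAZG197V 1 to 4. Every TAZG197V library was below every WT library, and the log2 fold change was -0.33 ± 0.0619 (SE, edgeR adjusted p = 0.00406). Ctsa, which stabilises sialidase and beta-galactosidase, was not called, at 0.15 ± 0.0555 (SE, edgeR adjusted p = 0.0581), and WT 3 was its highest WT library. The counterpart changes can be read within each library, where scaling plays no part. Ctsl counts per Ctsb count were 0.278 ± 0.0282 for WT and 1.25 ± 0.114 for TAZG197V, and Ctsd counts per Ctsb count were 0.950 ± 0.121 and 2.24 ± 0.130 (SD, n = 4 each), given as a description. Exons of Ctsd and Ctsl overlap annotated genes over 34.4% and 26.8% of their bases, Gm49369 for Ctsd and Gm47123 and Gm49230 for Ctsl, and these had 0 counts in all libraries. How reads on shared exon bases were counted is not given, so the counts of Ctsd and Ctsl are less certain. Ctsb overlaps Fdft1 over 12.8% of its exon bases, and Fdft1 averaged 24.9 CPM in WT and 25.4 CPM in TAZG197V. Ctsa overlaps Neurl2 and Pltp over 17.4% of its exon bases, and Neurl2 averaged 10.9 and 11.3 CPM and Pltp 25.6 and 19.7 CPM.

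Of the glycosidase genes 1 of 5 was called, where 33.4% of all genes tested were called in either direction. Hexa, the alpha subunit of hexosaminidase A, was at 48.1, 51.8, 59.8 and 52.9 CPM in WT 1 to 4 and 69.4, 71.03, 64.7 and 63.8 CPM in TAZG197V 1 to 4. The TAZG197V libraries were all above the WT libraries, at a log2 fold change of 0.33 ± 0.0748 (SE, edgeR adjusted p = 0.00993). Gla, Gaa, Neu1 and Glb1, for alpha-galactosidase A, acid alpha-glucosidase, sialidase and beta-galactosidase, had log2 fold changes of 0.10 ± 0.141, 0.01 ± 0.0583, -0.01 ± 0.0584 and 0.07 ± 0.0710 (SE). The lowest of all member counts in a library, 59, was for Gla, and its interval of -0.17 to 0.38 was the widest of the members not called. Without both number 4 libraries Gaa was at 0.13 (edgeR adjusted p = 0.114) and was not called. Its approximate 95% interval over all libraries was -0.10 to 0.12, which is narrower than the edgeR test would give. Npc2, which carries cholesterol in the lumen, was at 57.95, 64.5, 56.2 and 51.7 CPM in WT 1 to 4 and 67.4, 75.97, 73.99 and 67.8 CPM in TAZG197V 1 to 4. It did not overlap between genotypes, at a log2 fold change of 0.34 ± 0.0576 (SE, edgeR adjusted p = 0.00247). Psap, the precursor of the saposins that present sphingolipids to hydrolases, was the member with the highest counts and averaged 1297 ± 101 CPM over the WT and 1180 ± 105 CPM over the TAZG197V samples (SD, n = 4 each). It was not called, at -0.16 ± 0.0855 (SE, edgeR adjusted p = 0.182).

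Of the 3 MiT/TFE transcription factor genes 2 were called lower and 1 was not called, where 15.0% of all genes tested were called lower. Tfeb (ENSMUSG00000023990, chr17:47737030-47792419, plus strand) was at 24.9, 23.7, 24.1 and 25.7 CPM in WT 1 to 4 and 20.7, 20.3, 21.4 and 23.4 CPM in TAZG197V 1 to 4. All TAZG197V libraries were below all WT libraries, though TAZG197V 4 came close to WT 2. Tfeb had a log2 fold change of -0.21 ± 0.0580 (SE, edgeR adjusted p = 0.0236). The call was lost without WT 1, WT 3, TAZG197V 1 or TAZG197V 2, at adjusted p-values of 0.0685, 0.0541, 0.0752 and 0.0801, and without WT 4, where the log2 fold change of -0.19 missed the fold limit. In DESeq2 the adjusted p was 0.0762, and with no filter on low counts 0.0706. The log2 fold change also missed the fold limit, at -0.20, without surrogate variables, with lane in their place and with the replicate number as a block. The call held in 9 of 20 alternatives. Without both number 4 libraries Tfeb was called, at -0.22 (edgeR adjusted p = 0.0332). Mitf (ENSMUSG00000035158, chr6:97807052-98021349, plus strand) was at 64.98, 55.98, 56.8 and 73.3 CPM in WT 1 to 4 and 41.4, 35.7, 48.6 and 43.5 CPM in TAZG197V 1 to 4. The groups did not overlap, and the log2 fold change was -0.59 ± 0.104 (SE, edgeR adjusted p = 0.00292). Tfe3 was at 17.3, 19.3, 16.6 and 16.7 CPM in WT 1 to 4 and 17.7, 16.97, 15.9 and 16.4 CPM in TAZG197V 1 to 4. Its groups overlapped, and the log2 fold change was -0.04 ± 0.0669 (SE, edgeR adjusted p = 0.684), with an approximate 95% interval of -0.17 to 0.09. These are transcript levels, and nuclear entry of the proteins was not measured in these libraries.

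**Figure D4:**
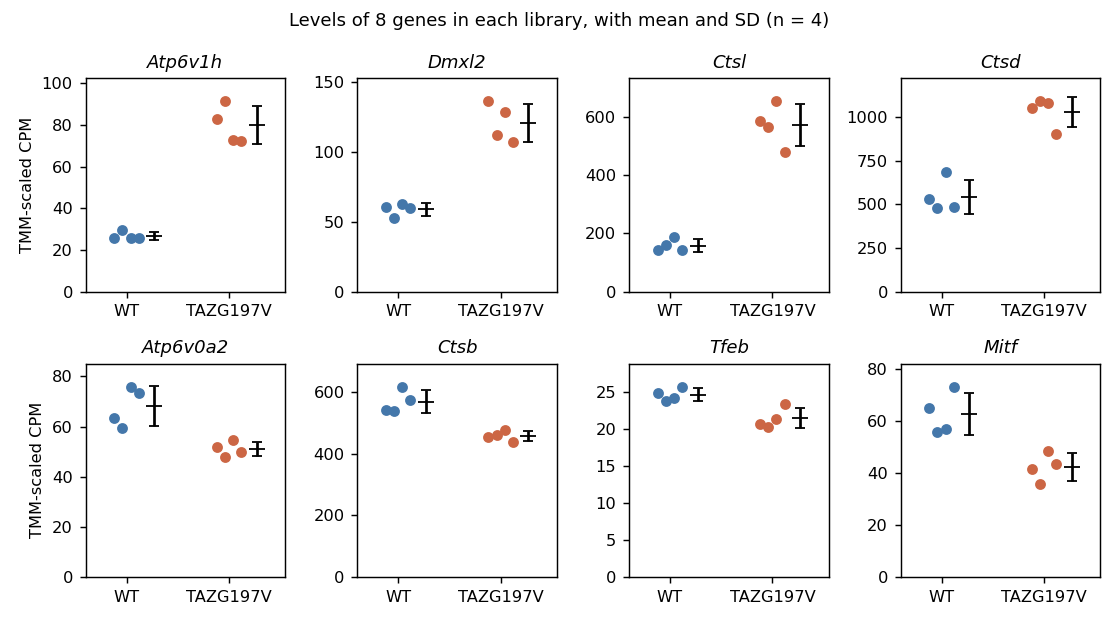
Each panel gives the TMM-scaled CPM of 1 gene, on an axis from 0, in the 4 WT and 4 TAZG197V libraries, with the mean and SD at the right of each group. Atp6v1h, Dmxl2, Ctsl and Ctsd lie higher in every TAZG197V library than in any WT library, and Atp6v0a2, Ctsb, Tfeb and Mitf lie lower.

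Since TFEB, TFE3 and MITF bind the E-box CACGTG, the start regions of the members were searched for it, in windows from 250 bases before to 50 bases after the transcription start (RefSeq, GRCm38.p6). The motif is its own reverse complement, so 1 strand covers both. A window was found for 31 of the 38 members and not for Atp6v1b2, Atp6v1c1, Atp6v1g1, Atp6v1h, Atp6v0a2, Npc1 and Ctsb. The E-box was present in 12 of the 31, 4 of 12 pump genes and 8 of 19 others, and in 8.09% of all 27025 genes with a window. The longer form TCACGTGA, which contains it, was present in 7 of the 31 and in 1.13% of all genes, and the 10-base palindrome that extends it by 1 base on each side in 0 of the 31 and in 0.37% of all genes. By call, 6 of 15 members called higher held an E-box, 0 of 2 called lower and 6 of 14 not called, so it was present in members called higher and in members not called, and 2 of the 4 called lower had no window. Stretches of up to 30 bases are shown for the 6 called members, and for Lamp1 and Gla as members that hold it and were not called, 5′ to 3′ on the gene's strand with the E-box in capitals.
Atp6v0b (chr4:117887330-117887359, minus strand): gggtcggcgcatCACGTGcgccggtcaggt
Atp6v0d1 (chr8:105566050-105566079, minus strand): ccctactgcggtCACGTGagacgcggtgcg
Atp6v0e (chr17:26676387-26676416, plus strand): tagcgcgccgatCACGTGagcctctgttga
Atp6v1a (chr16:44139373-44139402, minus strand): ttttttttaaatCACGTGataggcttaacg
Ctsd (chr7:142387908-142387937, minus strand): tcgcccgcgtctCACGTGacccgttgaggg
Ctsl (chr13:64370739-64370768, minus strand): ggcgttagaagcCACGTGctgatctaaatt
Lamp1 (chr8:13159088-13159117, plus strand): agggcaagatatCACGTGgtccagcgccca
Gla (chrX:134601182-134601211, minus strand): tgagatctcggtCACGTGagcaactctcgg
The E-box began 18 bases before the start in Atp6v0b, 3 before it in Atp6v0d1, 98 before it in Ctsd and 236 before it in Ctsl. Lamp1 held 4 E-boxes within 61 bases before its start, and Atp6v0b, Ctsa, Ctsd, Gla and Mcoln1 held more than 1. A match describes these letters in this window and is no measure of binding.

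The Rag GTPases, Ragulator and folliculin genes, which act on the lysosome surface in nutrient sensing and in the control of TFEB, were measured as a further list of 12. Of these, 9 were called higher and 1 lower, with a median log2 fold change of 0.30, beside 18.5% and 15.0% of all genes. The genotypes did not overlap, higher in TAZG197V, for 4 of the 12, where 19.3% of all genes tested did so. Among the called genes, 4 had an adjusted p under 0.05 in every alternative. Fnip2, a folliculin partner, was at 24.9, 24.2, 14.02 and 11.2 CPM in WT 1 to 4 and 33.5, 26.8, 25.2 and 20.3 CPM in TAZG197V 1 to 4. The groups overlapped, WT 3 and WT 4 being low, and the log2 fold change was 0.65 ± 0.176 (SE, edgeR adjusted p = 0.0208). It was 0.34 (edgeR adjusted p = 0.242) without WT 4 and 0.45 (edgeR adjusted p = 0.0427) without both number 4 libraries, and the adjusted p was 0.052 to 0.101 without WT 2, WT 3, TAZG197V 1, TAZG197V 2 or TAZG197V 4 and 0.182 without surrogate variables. Lamtor2, a Ragulator subunit, was at 31.6, 27.6, 29.01 and 24.3 CPM in WT 1 to 4 and 38.04, 40.02, 36.7 and 34.3 CPM in TAZG197V 1 to 4. All TAZG197V libraries were above all WT libraries, and the log2 fold change was 0.41 ± 0.0735 (SE, edgeR adjusted p = 0.00315). Lamtor4, another subunit, had 0.37 ± 0.0824 (SE, edgeR adjusted p = 0.00859), with overlap between genotypes, and its call was lost without surrogate variables (0.0765) and with lane in their place (0.0608). Flcn, folliculin, had 0.34 ± 0.104 (SE, edgeR adjusted p = 0.0321), and its adjusted p was over 0.05 without WT 2, WT 3, WT 4, TAZG197V 1, TAZG197V 2 or TAZG197V 4, each left out in turn, at 0.0598 to 0.099, and 0.0559 without surrogate variables. The calls of Fnip2 and Flcn held in 12 and 11 of 20 alternatives. The only gene lower was Rragd, named after its values were seen, at -0.31 ± 0.0814 (SE, edgeR adjusted p = 0.0187), and without both number 4 libraries it was at -0.12 (edgeR adjusted p = 0.323).

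Beyond the members, 67 further lysosome genes were examined, 65 of which were tested. Of these, 13 were called higher (20%) and 8 lower (12.3%), and the median log2 fold change was -0.01. The shares were 18.5% and 15.0% of all genes tested, and 22.5% and 18.3% of those with a mean count of at least 50. Scpep1, a serine carboxypeptidase, was at 14.7, 21.3, 14.7 and 16.3 CPM in WT 1 to 4 and 24.3, 27.96, 28.8 and 24.8 CPM in TAZG197V 1 to 4. Galc, the galactocerebrosidase, was at 12.3, 9.92, 11.7 and 9.87 CPM in WT 1 to 4 and 16.8, 18.3, 17.5 and 16.8 CPM in TAZG197V 1 to 4. Ctso, a cysteine protease, was at 20.3, 22.7, 20.1 and 23.2 CPM in WT 1 to 4 and 14.3, 16.6, 15.1 and 14.5 CPM in TAZG197V 1 to 4. In none of these 3 did the genotypes overlap, and the log2 fold changes were 0.72 ± 0.107 (SE, edgeR adjusted p = 0.00129), 0.65 ± 0.0875 (SE, edgeR adjusted p = 0.000794) and -0.51 ± 0.0860 (SE, edgeR adjusted p = 0.00253). Ctsk, a collagen-degrading cathepsin, was at 4.63, 8.63, 3.57 and 3.30 CPM in WT 1 to 4 and 6.65, 10.3, 7.49 and 5.94 CPM in TAZG197V 1 to 4. Its groups overlapped, and the log2 fold change of 0.84 ± 0.180 (SE, edgeR adjusted p = 0.00758) fell to 0.43 (edgeR adjusted p = 0.29) without WT 4 and to 0.56 (0.173) without TAZG197V 4. Without both it was 0.62 (edgeR adjusted p = 0.0268), and its adjusted p was 0.192 without surrogate variables and 0.0837 with lane in their place. The call held in 13 of 20 alternatives.

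Lysosomal hydrolases reach their compartment through mannose 6-phosphate tags and sorting receptors. Of 9 genes of this route 2 were called higher and 1 lower (22.2% and 11.1%, near the 18.5% and 15.0% of all genes), with a median log2 fold change of 0.15. Gnptg, a subunit of the enzyme that adds the tag, was at 11.5, 9.92, 9.79 and 10.1 CPM in WT 1 to 4 and 13.5, 13.03, 13.8 and 14.4 CPM in TAZG197V 1 to 4. The groups did not overlap and WT 1 was the highest of its genotype, with a log2 fold change of 0.41 ± 0.0857 (SE, edgeR adjusted p = 0.00707). Its exons overlap those of Unkl over 49.5% of their bases, so its counts are less certain. Nagpa, which uncovers the tag, had 0.22 ± 0.0750 (SE, edgeR adjusted p = 0.0469), a call that was lost when any of WT 1, WT 2, TAZG197V 1, TAZG197V 2 or TAZG197V 3 was left out, at 0.0857 to 0.165, and also with lane as covariate (0.0567) and with the replicate number as a block (0.0913), in DESeq2 (0.18) and with DESeq2 size factors (0.0544). Sort1, the sorting receptor sortilin, was at 35.2, 47.7, 30.2 and 85.6 CPM in WT 1 to 4 and 18.3, 21.8, 28.5 and 43.9 CPM in TAZG197V 1 to 4. WT 4 was far above the rest and TAZG197V 4 was the highest of its genotype. The log2 fold change was -0.80 ± 0.207 (SE, edgeR adjusted p = 0.0173), and without both number 4 libraries -0.70 (edgeR adjusted p = 0.00924). It was -0.63 (edgeR adjusted p = 0.0732) without TAZG197V 1 and -0.76 (0.069) without TAZG197V 2, and its adjusted p was 0.125 without surrogate variables and 0.0698 with lane in their place.

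**Figure D5:**
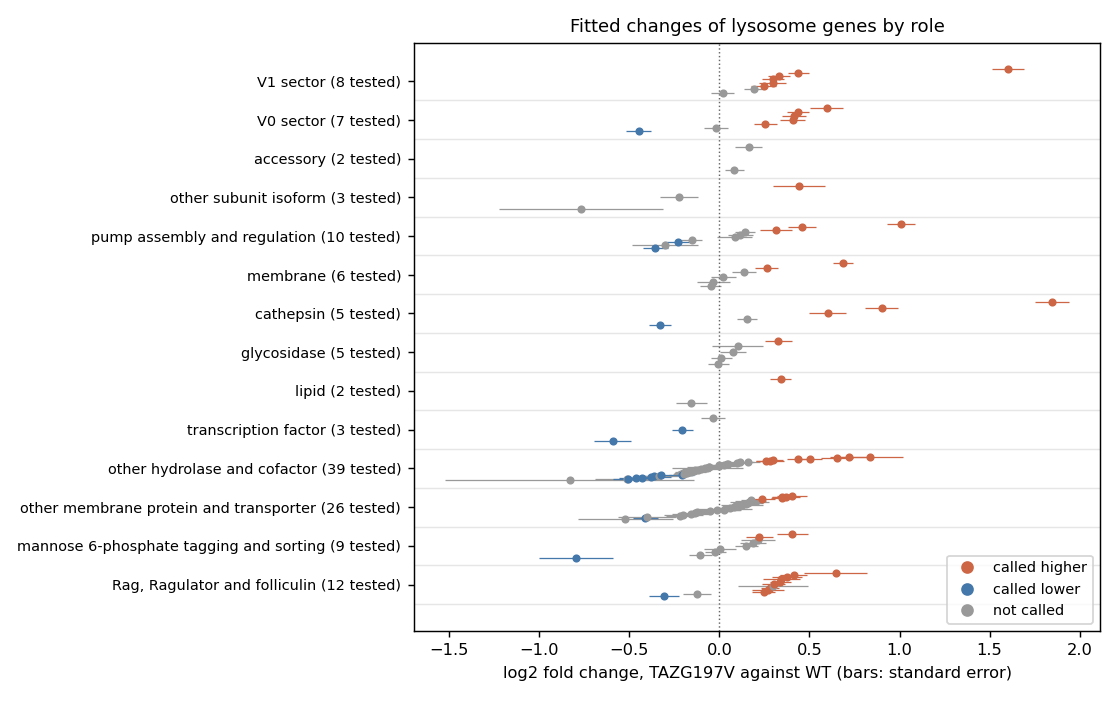
Points are fitted log2 fold changes, TAZG197V against WT, with their standard errors, for the members (V1 sector to accessory and membrane to transcription factor) and the other pathway lists, 1 point per gene tested. Genes called higher, called lower and not called differ in colour. V1 and V0 genes and the Rag, Ragulator and folliculin genes lie mostly right of 0, cathepsins lie on both sides, and the further hydrolases and membrane proteins spread about 0.

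Lysosome genes are expressed at high levels in macrophages, so markers of other heart cells were read beside these results. Of 10 macrophage markers 0 were called by edgeR and 0 by DESeq2, with 2 at an unadjusted edgeR p under 0.05. Over the 20 alternatives C1qa passed the adjusted p in 3, Ptprc in 2 and Fcgr1 in 2, and Fcgr1 was called, higher, without both number 4 libraries. The summed level of the 10 ran from 346.9 to 498.4 CPM in WT and from 320.0 to 519.1 CPM in TAZG197V, and none was at 0. WT 4 was the highest of its genotype and TAZG197V 4 the lowest, and without them the sums were 346.9 to 438.1 CPM in WT and 383.2 to 519.1 CPM in TAZG197V. Ptprc, the pan-leucocyte marker, was at 66.3 CPM in WT 4 and at 8.18 to 14.9 CPM in the other 7 libraries, and Laptm5, a lysosome gene of leucocytes, at 51.9 CPM and 16.5 to 25.6 CPM. Cd68 and Ctss, lysosome genes of macrophages in the further list, had log2 fold changes of 0.03 ± 0.151 and -0.07 ± 0.199 (SE). Of 8 cardiomyocyte markers 4 were called lower, with a summed level of 72690 to 81060 CPM in WT and 60130 to 65070 CPM in TAZG197V. Fibroblast markers had 4 of 6 called lower and summed to 887 to 1473 CPM in WT and 610.0 to 840.4 CPM in TAZG197V. Endothelial markers had 2 of 6 called lower and summed to 762.2 to 1049 CPM and 625.9 to 779.8 CPM. Over all genes tested 15.0% were called lower, and 18.3% of those with a mean count of at least 50. The part of these in the lysosome gene changes was not tested.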

How the data were processed

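RNA was extracted with TRIzol from pieces of heart, 4 WT and 4 TAZG197V samples, and 500 ng was made into libraries with a TruSeq kit. Single-end reads of 50 bases were demultiplexed by the authors with bcl2fastq 2.20.0, who then, per the submitters' processing notes and the study's methods, checked them with FastQC 0.11.9, aligned them to mm10 with STAR 2.7.3a and counted reads per gene with featureCounts in Subread 2.0.0. The deposited values are raw counts per Ensembl gene. The annotation release, strand setting and treatment of reads with several alignments are not given in the sources used here, so genes that overlap or share sequence with others are less certain.

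Symbols, positions and exon lengths were taken from GENCODE M21 (GRCm38, the assembly that mm10 names), which gave a symbol to 55230 of 55471 gene IDs, and Tmem55b was found under its newer name. The 92 spike-in rows held 0 counts and were left out. In R 4.3.3, genes were filtered with filterByExpr, scaled by TMM and tested two-sided with the quasi-likelihood test of edgeR 4.0.16, with 2 surrogate variables from svaseq (sva 3.50.0, seed 1) as covariates and Benjamini-Hochberg adjustment over 15084 genes, following the covariates and limits of the study. SE is the log2 fold change divided by the square root of F, and approximate 95% intervals are 1.96 SE either side. These intervals are narrower than the edgeR test would give. That of Atp6ap2, 0.01 to 0.31, lies above 0 at an unadjusted edgeR p of 0.0685. Counting error is small at these depths, intervals and floors cover counting error only where drawn from counts, and the spread between samples sets the precision. Libraries of a genotype differed by a chi-square of at least 10.2 per gene, so none repeated another.

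The members and lists were chosen with earlier results of these data known. Values in each library are given for every called member and the transcription factors, and from each further list the up to 4 called genes with the largest change are named, with genes that share a subunit position with a member. Alternatives were DESeq2 1.42.0, 0 or 1 surrogate variables, the lane or the replicate number as covariate, scaling by DESeq2 size factors, libraries without mitochondrially encoded genes, no count filter, no minimum mean count, a fold limit of 1.5, each library left out in turn, both number 4 libraries left out and, added after seeing the data, surrogate variables from TMM-scaled CPM. Promoter windows were those of RefSeq on GRCm38.p6.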

Additional observations from a re-analysis of the deposited data

Results flagged for a closer look

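In each genotype and gene the library farthest from the others was compared with the range of the 4, over 112 sets for members and named genes. A gap above Dixon's critical value was found in 6 sets, where chance flags about 1 in 20, or 5.6. Atp6v1a was high in TAZG197V 4, with a gap of 0.932 of the range, and Atp6v1h was high in WT 2, at 0.923. Ctsa was high in WT 3, at 0.911. Atp6v1g2 was high in both number 4 libraries, at 0.853 in WT 4 and 0.862 in TAZG197V 4, and Gnptg was high in WT 1, at 0.835. The causes were not tested.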

How the results depend on the processing

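Over 20 alternatives the 38 members gave 760 values, of which 715 kept their call, 40 lost it, 5 gained it and 0 called values changed sign. All 22 called members kept their sign, and 16 had an adjusted p under 0.05 in every alternative. At a fold limit of 1.5, which fewer genes can pass by construction, proton pump genes had 2 called higher and 0 lower, other lysosome genes 4 higher and 1 lower, all genes 1831 called, and Tafazzin, at a log2 fold change of -0.37, was not called. With 1 library left out, proton pump genes had 8 to 11 called higher and 1 lower, other lysosome genes 7 higher and 2 to 3 lower, all genes 3666 to 4814, and Tafazzin ran from -0.40 to -0.35. DESeq2 cost 2 members their call (Atp6v0c, adjusted p = 0.0513, and Tfeb), lane as covariate 3, no surrogate variables 4, and omission of both number 4 libraries 1 while another gained it. The numbers of the samples were not treated as a pairing, because same-numbered libraries deviated together at r = 0.277, 0.0436, 0.28 and 0.416, 3 of 4 over the 0.1 set as the limit for every pair. WT 1, WT 2 and WT 4 correlated best with their own number, and WT 3 did not (0.28 against 0.317 and 0.3). Read from the other genotype, TAZG197V 3 and TAZG197V 4 did so. TAZG197V 1 and TAZG197V 2 correlated best with WT 3, at 0.3 and 0.317. Any hint of a pairing comes from the data and not from the design. With the replicate number as a block, 4272 genes were called and 1 member, Tfeb, lost its call at a log2 fold change of -0.20. Depth limits Gla and the isoforms near 0 counts most.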
